A study of Mus musculus with 6 samples.

Results

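Transcripts of the Notch pathway were compared between mesenchymal stromal cells (MSCs) of Nlrp3 knockout and wild-type (WT) mice after exposure to lipopolysaccharide (LPS). The genes described are 10 of the 55401 in the deposited table, taken by symbol: the receptors Notch1, Notch2 and Notch3, the ligands Jag1, Jag2 and Dll1, and the target genes Hes1, Hey1, Hey2 and Heyl. All 10 were found in the table, each in a single row. The groups were 3 libraries of NLRP3-/- MSCs with LPS and 3 libraries of WT MSCs with LPS, in both cases marrow cells of strain C57/B6J flushed from the femur, expanded in culture and given 3 µg/mL LPS for 24 h. Every library thus had LPS, so that the comparison concerns genotype under LPS and not the response to LPS. The age of the mice, the way the knockout was made and the relation of the 3 libraries per genotype to animals or cultures are absent from the labels. The p-values accordingly reflect library-to-library spread, possibly technical in origin, and a difference between starting cultures cannot be told apart from one between genotypes.

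Notch receptors are membrane proteins that are activated by Jagged or Delta-like ligands on a neighbouring cell. Ligand binding exposes the receptor to cleavage by ADAM proteases and then by gamma-secretase, which releases the intracellular domain. This fragment enters the nucleus, binds the DNA-binding protein RBPJ together with Mastermind coactivators and switches on genes such as those of the Hes and Hey families, which encode basic helix-loop-helix repressors. In marrow stroma, Notch signalling is known for restraining osteoblast differentiation of progenitors, and Jagged and Delta-like ligands on stromal cells are known to act on blood cells.

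The libraries held between 53157580 and 66298470 estimated counts, at about 4 counts per sequenced fragment. Nlrp3 was listed at 0 FPKM in each of the 3 knockout libraries, against 2.76, 1.68 and 1.86 FPKM in the WT libraries (FPKM, fragments scaled to transcript length and library size). With a floor of 12 estimated counts (3 fragments) set for the whole knockout group, that is a level at least 142-fold lower. The exact two-sided permutation p was 0.1, below which groups of this size cannot go. The cultures carried stromal genes at a high level (Col1a1, 1301 ± 75 FPKM in knockout and 1726 ± 86 in WT libraries; Col1a2, 657 ± 45 and 854 ± 28; Itgb1, an integrin subunit, 313 ± 25 and 287 ± 6.6, not called) and also macrophage genes. Of 20 stromal markers, 19 were tested with limma, of which 11 were lower, 4 higher and 4 not called in the knockout libraries. Their summed level, mostly Col1a1 and Col1a2, lay between 2676 and 2898 FPKM in knockout and between 3732 and 4107 FPKM in WT libraries. Among them, named after their values were seen, Thy1, a surface antigen used to define MSCs, stood at 11.8 ± 1.2 FPKM in knockout and 134 ± 6.2 FPKM in WT libraries, and Pdgfra, a growth factor receptor of stromal progenitors, at 2.96 ± 0.23 and 30.2 ± 1.7 FPKM. Nes, nestin, was higher, at 33.7 ± 1.2 FPKM in knockout and 11.1 ± 0.49 FPKM in WT libraries. Nt5e, also named after its values were seen, was higher too, at 2.35 ± 0.27 and 0.183 ± 0.068 FPKM. It passed the filter on low values through the knockout libraries alone. With 1 library left out in turn, the stromal calls of Col1a1 and Col1a2 held in 1 of 6 limma fits each. Prrx1 held in 2, Cxcl12 in 0 and the other stromal calls in all 6. Of 24 macrophage markers, 20 were tested with limma and called higher in the knockout libraries, 1 of which, Aif1, passed the filter on low values through those libraries alone. Of the 4 under that filter, Mrc1 (0.760 FPKM in knockout, 0.683 in WT) and Cx3cr1 (0.107 and 0.113) overlapped between the groups. Ptprc (0.843 and 0.303, edgeR adjusted p = 0.0118) and Mertk (0.770 and 0.570, 0.268) lay above the WT values in every knockout library. The summed level of the 24, mostly Lyz2, lay between 1684 and 1902 FPKM in knockout and between 702 and 799 FPKM in WT libraries. With 1 library left out in turn, the macrophage calls of Itgam and Clec4e held in 2 of 6 limma fits each. Aif1 held in 1 and the other macrophage calls in all 6. The 14 endothelial markers summed to 0.70 to 1.06 FPKM in knockout and 2.06 to 2.85 FPKM in WT libraries. All were under the limma filter, and edgeR called 4 of them lower (Flt1, Tek, Erg and Egfl7). The 12 lymphoid markers summed to 0.19 to 0.48 FPKM in knockout and 0.77 to 0.90 FPKM in WT libraries, and Cd3e, Cd3d, Cd3g, Cd79b, Ms4a1 and Ncr1 were at 0 in every library.

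The receptors were led by Notch2 in both genotypes. Notch2 (ENSMUSG00000027878, GRCm38 chromosome 3, positions 98013527 to 98150361, plus strand) stood at 17.48, 21.93 and 18.11 FPKM in the 3 knockout libraries, against 20.14, 22.53 and 21.80 FPKM in the 3 WT libraries. The groups overlapped, since knockout replicate 2 lay above the first and the third of the WT values. The log2 fold change was -0.16, taken here and below as the knockout mean minus the WT mean of log2(FPKM + 1), which understates the change of low genes (95% interval -0.40 to 0.08, limma adjusted p = 0.329), so that a change was not detectable at this spread. About 10341 fragments in knockout and 11453 in WT libraries underlie these values.

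Notch1, the receptor best known from T-cell development, was higher in the knockout cultures. Notch1 (ENSMUSG00000026923, chromosome 2, positions 26457903 to 26516663, minus strand) had 1.73, 1.89 and 1.74 FPKM in the knockout libraries, against 1.07, 1.25 and 1.20 FPKM in the WT libraries. Every knockout value lay above every WT value, and the mean was 1.52 times as high. The log2 fold change was 0.36 ± 0.08 (SE, 95% interval 0.17 to 0.55, limma adjusted p = 0.0218). With the replicate number as a block the adjusted p was 0.0526 (limma). The call was also lost without knockout replicate 1 (adjusted p = 0.0644) or 2 (0.0629) and without WT replicate 1 (0.0905), 2 (0.0580) or 3 (0.0677), with log2 fold changes of 0.32 to 0.38 over the 6 libraries left out in turn (limma).

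Notch3, the receptor that is characteristic of vascular mural cells, leaned the other way. Notch3 (ENSMUSG00000038146, chromosome 17, positions 32120820 to 32166852, minus strand) had 1.20, 1.29 and 1.35 FPKM in the knockout libraries, against 1.66, 1.71 and 1.51 FPKM in the WT libraries. The groups did not overlap, but the log2 fold change of -0.20 ± 0.08 did not pass (95% interval -0.39 to -0.02, limma adjusted p = 0.133). edgeR gave an adjusted p of 0.0785 and DESeq2 one of 0.0410. Of the mural cell and contractile genes listed with Notch3, 9 were tested, of which 6 were higher in the knockout libraries (Acta2, smooth muscle actin, 2338 ± 218 FPKM in knockout and 1156 ± 70 in WT; Tagln, an actin-binding protein, 682 ± 84 and 422 ± 14; Cnn1, calponin, 66.6 ± 6.4 and 37.1 ± 4.4), 1 was lower and 2, Notch3 and Cspg4, were not called. Synpo2, 1 of the 6, passed the filter through the knockout libraries alone. The gene that was lower was Ndufa4l2, a pericyte marker, with 1.15 ± 0.51 FPKM in knockout and 33.8 ± 5.6 FPKM in WT libraries, the largest change of the list (log2 fold change -4.03, limma adjusted p = 4.06e-05). Its knockout values were 1.07, 0.69 and 1.7 FPKM, so that it met the filter on low values only with WT libraries counted. Its call follows in part from that filter. Cspg4, the pericyte proteoglycan NG2, stood at 4.08 ± 0.42 FPKM in knockout and 4.44 ± 0.49 FPKM in WT libraries. Under the limma filter, Myh11, smooth muscle myosin, averaged 0.123 FPKM in knockout and 0.537 FPKM in WT libraries (edgeR adjusted p = 0.0122), and Des, desmin, 0.320 and 0.773 FPKM (0.132). The pericyte genes Kcnj8, Abcc9, Rgs5 and Higd1b averaged at most 0.13 FPKM in either genotype. The part of mural cells in the values of Notch3 was not tested.

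The order of the 2 minor receptors was opposite in the genotypes. Since FPKM is scaled to transcript length, their levels can be set side by side within a library. The ratio of Notch1 to Notch3 was 1.44, 1.47 and 1.29 in the knockout libraries, against 0.645, 0.731 and 0.795 in the WT libraries. Notch1 thus exceeded Notch3 in 3 of 3 knockout libraries and lay below it in 3 of 3 WT libraries. Notch2 was 10.1, 11.6 and 10.4 times Notch1 in the knockout libraries, against 18.8, 18.0 and 18.2 times in the WT libraries.

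Within the sum of Notch1, Notch2, Notch3 and Notch4, Notch2 took 84.0% ± 1.3 in knockout and 86.8% ± 0.45 in WT libraries, and Notch1 took 7.87% ± 0.48 and 4.73% ± 0.13 (SD, n = 3 each). Notch4, the endothelial receptor, stood at 0.557 ± 0.133 FPKM in knockout and 0.473 ± 0.050 FPKM in WT libraries, under the limma filter (edgeR adjusted p = 0.588). The sum of the receptors itself was 22.8 ± 2.6 FPKM in knockout and 24.8 ± 1.3 FPKM in WT libraries. The exact two-sided permutation test gave p = 0.1 for the ratios of Notch1 to Notch3 and of Notch2 to Notch1 and for the shares of Notch1 and Notch2. That is the smallest p this design allows, and 12 such measures were compared in all, so that none can pass a threshold of 0.05.

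**Figure D1:**
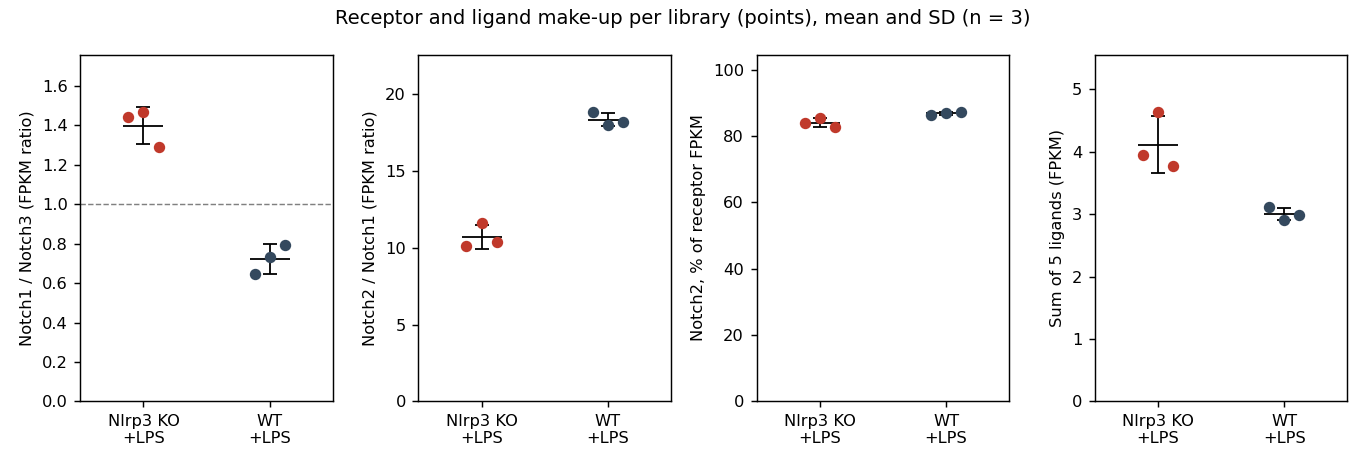
Receptor and ligand make-up in the 3 Nlrp3 knockout (red) and 3 WT (dark) libraries, all with LPS; points are libraries, black lines the mean and SD, and the axes give ratios of FPKM, a percentage of summed receptor FPKM and summed ligand FPKM. The ratio of Notch1 to Notch3 lies above 1 (dashed line) in every knockout library and below 1 in every WT library, while Notch2 keeps more than 82% of the receptor signal in all 6.

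Among the ligands, Jag1 accounted for nearly all of the signal and was higher in the knockout cultures. Jag1 (ENSMUSG00000027276, chromosome 2, positions 137081456 to 137116644, minus strand), the Jagged ligand that marrow stromal cells are known to carry, had 3.78, 4.34 and 3.57 FPKM in the knockout libraries, against 2.82, 2.64 and 2.64 FPKM in the WT libraries. Every knockout value exceeded every WT value, with a mean 1.44 times as high. The log2 fold change was 0.40 ± 0.09 (SE, 95% interval 0.20 to 0.61, limma adjusted p = 0.0194), the largest of the 5 members tested. With the replicate block the adjusted p was 0.0510 (limma). The call was lost without knockout replicate 1 (adjusted p = 0.0595) and without WT replicate 1 (0.0579), 2 (0.0717) or 3 (0.0711), with log2 fold changes of 0.34 to 0.45 over the libraries left out in turn (limma).

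Dll1, a Delta-like ligand, was low. Dll1 (ENSMUSG00000014773, chromosome 17, positions 15367354 to 15376872, minus strand) had 0.15, 0.29 and 0.18 FPKM in the knockout libraries, against 0.28, 0.25 and 0.34 FPKM in the WT libraries. The groups overlapped, and about 44 fragments in knockout and 60 in WT libraries carried these values (edgeR adjusted p = 0.388). Jag2 (ENSMUSG00000002799, chromosome 12, positions 112907819 to 112929776, minus strand), the second Jagged ligand, had 0, 1 and 12 estimated counts in the knockout libraries, against 4, 13 and 4 in the WT libraries, so that neither a level nor a difference can be read. Of the remaining Delta-like ligands, Dll3 was at 0 in every library and Dll4 reached 0.01 FPKM in a single knockout library. Jag1 made up 94.8% ± 1.1 of the summed FPKM of these 5 ligands in knockout and 89.9% ± 1.4 in WT libraries, and the sum was 4.11 ± 0.46 FPKM in knockout and 3.00 ± 0.10 FPKM in WT libraries (SD, n = 3 each, exact two-sided permutation p = 0.1 for both, the smallest possible).

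Of the 4 target genes, Hes1 was the 1 tested with limma and was not called, while the Hey genes were near the limit of detection. Hes1 (ENSMUSG00000022528, chromosome 16, positions 30064384 to 30067796, plus strand), the repressor most widely used as a readout of Notch activity, had 3.69, 4.0 and 5.17 FPKM in the knockout libraries, against 5.78, 6.0 and 4.52 FPKM in the WT libraries. The groups overlapped, because the third library of each lay on the side of the other group. The log2 fold change was -0.29 ± 0.14 (95% interval -0.62 to 0.05, limma adjusted p = 0.227). Over the libraries left out in turn it stayed between -0.40 and -0.20, and the adjusted p lay between 0.0704 and 0.476 (limma).

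Hey1, a target that is also induced by BMP signals, was low and uneven. Hey1 (ENSMUSG00000040289, chromosome 3, positions 8663359 to 8667256, minus strand) had 0.23, 0.07 and 0.35 FPKM in the knockout libraries, against 0.06, 0.01 and 0.06 FPKM in the WT libraries. The knockout values all lay above the WT values, the second of them by 0.01 FPKM, which is the last decimal of the table. The estimated counts were 53, 16 and 76 in the knockout libraries, against 15, 4 and 12 in the WT libraries. It was under the level required for the limma test. On the estimated counts edgeR gave a log2 fold change of 2.13 with an adjusted p of 0.110, DESeq2 one of 2.15 with 0.0414, and limma without the filter on low values gave an adjusted p of 0.227.

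Hey2 (ENSMUSG00000019789, chromosome 10, positions 30832359 to 30842801, minus strand), a Hey repressor best known from heart and arteries, had 0.14, 0.11 and 0.11 FPKM in the knockout libraries, against 0.01, 0.06 and 0.11 FPKM in the WT libraries, with an edgeR adjusted p of 0.448. Heyl (ENSMUSG00000032744, chromosome 4, positions 123233556 to 123249875, plus strand), the remaining Hey gene, had 0 estimated counts in all 3 knockout libraries, against 0, 0 and 4 in the WT libraries, about 1 fragment in total. Hes1 made up 92.8% ± 2.5 of the summed FPKM of Hes1, Hey1, Hey2 and Heyl in knockout and 97.9% ± 1.5 in WT libraries (SD, n = 3 each, exact permutation p = 0.1, the smallest possible). The sum itself, 4.62 ± 0.87 FPKM in knockout and 5.54 ± 0.74 FPKM in WT libraries, overlapped between the groups (exact permutation p = 0.2).

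**Figure D2:**
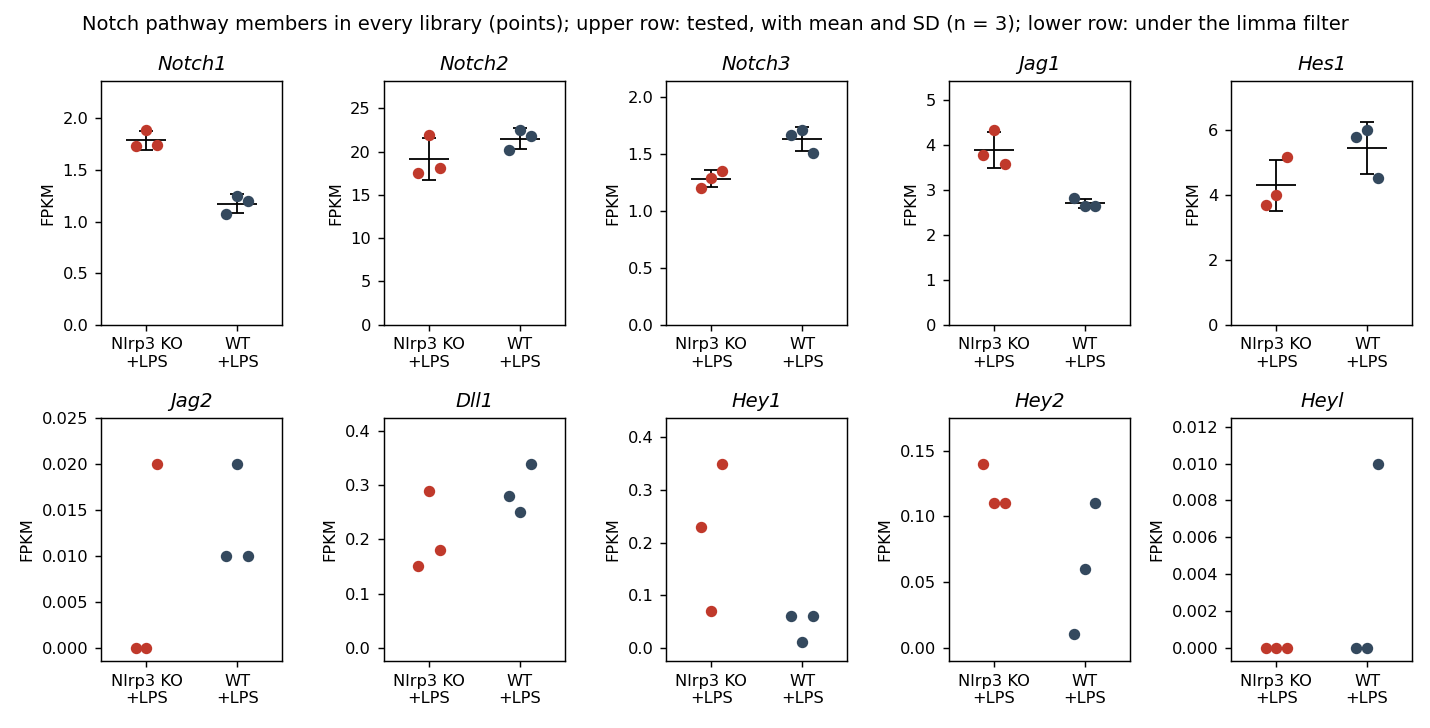
FPKM of the 10 members in the 3 Nlrp3 knockout (red) and 3 WT (dark) libraries, all with LPS; each panel has its own linear axis, points are libraries in the order of their replicate number, and black lines in the upper row give the mean and SD. Notch1 and Jag1 separate with the knockout libraries above, Notch3 separates with them below, Notch2 and Hes1 overlap, and the lower row stays under 0.4 FPKM.

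Across both genotypes the levels ran from Notch2 (mean 20.3 FPKM over the 6 libraries) through Hes1 (4.86) and Jag1 (3.30) to Notch1 (1.48) and Notch3 (1.45), followed by Dll1 (0.248), Hey1 (0.130), Hey2 (0.090), Jag2 (0.010) and Heyl (0.002). Hes1 and Jag1 overlapped in range in the knockout libraries and did not in the WT libraries. Dll1 and Hey1 likewise overlapped in the knockout libraries and not in the WT libraries, while Hey1 and Hey2 overlapped in both. Jag2 and Heyl, at or near 0, overlapped in both. Among all tested genes, 19.3% had a higher mean level than Notch2, 58.0% than Hes1, 70.2% than Jag1, 90.5% than Notch1 and 90.9% than Notch3.

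Of the 10 members, 5 reached 1 FPKM in 3 or more libraries, the level asked for, and were tested; all 5 reached 1 FPKM in each of the 6 libraries, so that none entered through a single group. Of these members, 2 were called higher in the knockout cultures (Notch1 and Jag1) and 0 lower at an adjusted p of 0.05 (limma). Without adjustment 1 was lower at 0.05, namely Notch3 with a limma p of 0.0381 in the fit over all genes; DESeq2 called it lower and edgeR called 0 lower. Over all tested genes 19.6% were called, 10.4% as higher and 9.2% as lower, so that 2 of 5 is a small number beside a large background. The values of the groups did not overlap for 3 of the 5, against 36.7% of all tested genes. The median log2 fold change was -0.16 for the 5 members and 0.01 for all tested genes. Among all tested genes 19.5% had a larger absolute log2 fold change than Jag1 and 22.6% a larger one than Notch1.

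Other fits gave between 0 and 4 calls among the members. edgeR on the estimated counts called Notch1 (adjusted p = 0.00736) and Jag1 (0.0155), with 16.6% of all its genes called. DESeq2 called 4, namely Notch1, Jag1 and Hey1 as higher and Notch3 as lower, with 21.1% of all its genes called. The fit with the replicate block called 0 of the 5, with 17.2% of all genes called; Notch1 and Jag1, 2 of the 5, had an unadjusted p under 0.05 in that limma fit. Beside these calls, 20 of 24 macrophage markers were called higher in knockout libraries, Aif1 among them through the filter described. Among the macrophage markers, Lyz2, lysozyme, stood at 1145 ± 94 FPKM in knockout and 463 ± 45 FPKM in WT libraries. Adgre1, F4/80, stood at 134 ± 2.8 and 44.0 ± 2.7 FPKM, and Fcer1g, an Fc receptor subunit, at 104 ± 9.2 and 40.9 ± 0.95 FPKM. Of the 20 stromal markers, 11 were called lower and 4 higher in knockout libraries. Macrophages and stromal cells are both known to express Notch1, Notch2, Jag1 and Hes1, and the part of either in the values of the members was not tested. In such bulk samples, fewer cells of a type and less RNA per cell cannot be told apart.

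**Figure D3:**
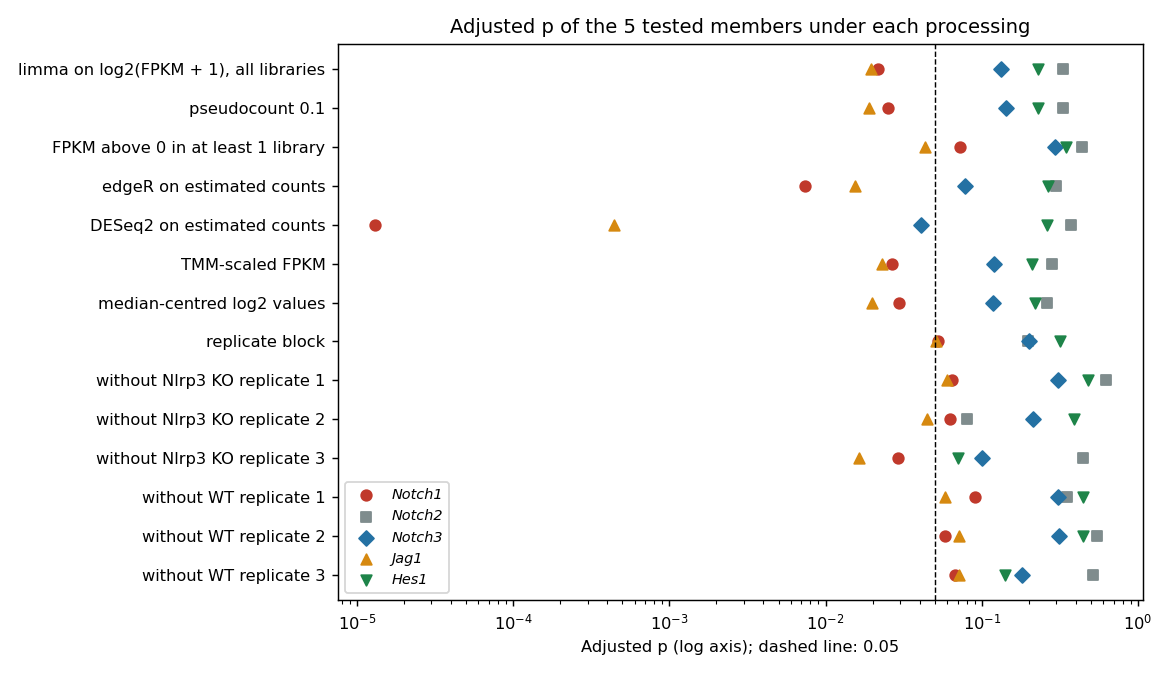
Adjusted p (log axis) of the 5 tested members under the main limma fit and each alternative; symbols and colours mark genes and the dashed line is 0.05. Jag1 and Notch1 lie left of the line with all libraries in limma with either pseudocount, edgeR, DESeq2 and both rescaled fits, Jag1 alone without the filter on low values, and both lie just right of it with the replicate block and mostly right of it with 1 library left out, while Notch2 and Hes1 lie right of it throughout.

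Promoter windows of the 2 members called, and of Hey2, the member whose window holds the RBPJ core motif, show how these genes differ in sequence around the start. The windows run from 250 bases before to 50 bases after the gene start in RefSeq (GRCm38.p6), 5′ to 3′ on the strand of the gene. Capitals mark matches, on either strand, to the RBPJ core TGGGAA, the Hes and Hey E-box CACGTG, the N-box CACNAG bound by Hes proteins, or the TATA motif TATAAA. The RefSeq start of Notch1 lies inside the gene span given above.
Notch1, chr2:26503773-26504072, minus strand: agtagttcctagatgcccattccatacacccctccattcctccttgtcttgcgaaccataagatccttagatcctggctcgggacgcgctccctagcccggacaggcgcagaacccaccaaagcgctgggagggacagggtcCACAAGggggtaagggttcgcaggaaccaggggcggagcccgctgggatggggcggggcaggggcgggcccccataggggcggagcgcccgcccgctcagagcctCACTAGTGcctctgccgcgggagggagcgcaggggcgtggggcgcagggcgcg
Jag1, chr2:137116471-137116770, minus strand: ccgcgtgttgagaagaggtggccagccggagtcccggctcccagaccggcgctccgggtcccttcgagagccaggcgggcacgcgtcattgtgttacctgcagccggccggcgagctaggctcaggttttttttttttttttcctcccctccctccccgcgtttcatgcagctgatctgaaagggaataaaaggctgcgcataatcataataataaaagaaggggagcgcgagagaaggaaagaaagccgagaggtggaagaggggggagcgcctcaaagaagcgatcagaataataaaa
Hey2, chr10:30842734-30843033, minus strand: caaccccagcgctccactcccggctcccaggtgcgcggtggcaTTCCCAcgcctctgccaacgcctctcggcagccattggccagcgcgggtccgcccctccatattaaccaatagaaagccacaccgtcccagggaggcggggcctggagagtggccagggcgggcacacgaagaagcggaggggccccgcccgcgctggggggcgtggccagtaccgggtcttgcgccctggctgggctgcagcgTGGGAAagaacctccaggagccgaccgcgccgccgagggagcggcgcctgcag

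RefSeq windows were found for 7 of the 10 members, Dll1 with more than 1; Hes1, Hey1 and Heyl had none. The Notch1 window held 3 N-box matches, of which 2 overlap on opposite strands at the gene start (first bases at -3 and -1 relative to the start), and none of the other motifs. The Jag1 window held none of the 4. The Hey2 window held the RBPJ core at -207 on the opposite strand and at -3 on the gene's own strand, and was the only member window with it. Over all 32851 windows of this length, 25.6% held the RBPJ core, 42.5% the N-box, 7.15% the E-box and 13.6% the TATA motif. The GC content of the windows was 68.3% for Notch1, 55.7% for Jag1 and 72.0% for Hey2, against a median of 52.7% over all windows. These matches describe letters and are no evidence of binding.

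The rest of the pathway was taken from lists of 75 further genes, of which 57 were tested. Of these, 7 were higher and 5 lower in the knockout libraries (21.1% called, against 19.6% of all tested genes), with a median log2 fold change of -0.03 against 0.01 for all tested genes. Of the 12 calls, 6 held with each of the 6 libraries left out in turn: Dlk1, Gxylt2, Neurl3, Dtx3l, Tle2 and Cdkn1a.

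Dlk1, a non-canonical ligand of the family that is known as preadipocyte factor 1, had the largest change of these genes. It had 0.49, 0.23 and 0.35 FPKM in the knockout libraries, against 4.34, 3.98 and 4.14 FPKM in the WT libraries (log2 fold change -1.93 ± 0.10, limma adjusted p = 4.41e-05). It passed the filter on low values through the WT libraries alone, so that its call and the lack of overlap follow in part from that filter. The other listed ligands were under the limma filter; on the estimated counts edgeR gave an adjusted p of 0.187 for Dlk2 and 0.854 for Dner, and made no call.

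Among the enzymes that cut the receptor, 9 were tested and 1 was called. Ncstn, which encodes the gamma-secretase subunit nicastrin, fell to 52.8 ± 2.7 FPKM in knockout libraries, against 63.8 ± 1.7 FPKM in WT libraries (log2 fold change -0.27, limma adjusted p = 0.0317); without knockout replicate 1 or 2 or any 1 of the WT libraries it did not pass (0.0576 to 0.131), nor with the replicate block (0.0648). Psen2, which encodes a catalytic subunit, stood at 3.74 ± 0.58 FPKM in knockout and 3.95 ± 0.03 FPKM in WT libraries and was not called. Adam10, the protease that makes the first ligand-induced cut and a gene singled out after its values were seen, had 20.64, 23.42 and 8.90 FPKM in the knockout libraries, against 16.93, 18.07 and 17.12 FPKM in the WT libraries. Knockout replicate 3 lay far below the other 5 libraries; without it the log2 fold change was 0.32 (limma adjusted p = 0.0338), and with it -0.08 (0.895).

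Of 8 tested genes that add sugars to the receptor, Gxylt2, a xylosyltransferase acting on O-glucose of the epidermal growth factor repeats, was the 1 called. It rose to 2.02 ± 0.19 FPKM in knockout libraries, against 1.11 ± 0.05 FPKM in WT libraries (log2 fold change 0.51 ± 0.08, limma adjusted p = 0.00607). The fringe gene Lfng, whose product shifts receptors between Delta-like and Jagged ligands, stood at 5.28 ± 0.66 FPKM in knockout and 4.30 ± 0.58 FPKM in WT libraries and was not called.

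Of 14 tested genes of ubiquitin ligation and trafficking, 3 were higher and 2 lower. That is 35.7% of a small list, against 19.6% of all tested genes. Neurl1b, under the limma filter, averaged 0.370 FPKM in knockout and 0.103 FPKM in WT libraries, without overlap. On the estimated counts it was called higher by edgeR (adjusted p = 0.0132) and DESeq2 (0.000138), from about 118 fragments in knockout and 32 in WT libraries. Neurl3, a Neuralized-type ubiquitin ligase, rose to 3.72 ± 0.20 FPKM in knockout libraries, against 1.84 ± 0.28 FPKM in WT libraries (log2 fold change 0.74 ± 0.10, limma adjusted p = 0.00265). Dtx3l, a Deltex-type ligase that is also interferon-inducible, fell to 14.1 ± 1.1 FPKM in knockout libraries, against 19.7 ± 1.1 FPKM in WT libraries (-0.45 ± 0.08, 0.00878). Neurl1a, a Neuralized ligase that acts on ligand uptake, averaged 1.25 FPKM in knockout and 0.730 FPKM in WT libraries (limma adjusted p = 0.0334) and passed the filter through the knockout libraries alone. Numbl, an endocytic adaptor related to the Notch antagonist Numb, averaged 8.50 FPKM in knockout and 10.7 FPKM in WT libraries (0.0371), and Dtx4, a Deltex ligase, 4.19 and 3.34 FPKM (0.0449). Neurl1a did not pass without any 1 of the 6 libraries (limma adjusted p of 0.0529 to 0.115), and Numbl and Dtx4 passed only without knockout replicate 3 (0.0352 and 0.0420). Neurl1a and Dtx4 also missed the threshold with the replicate block (0.0827 and 0.0948), as did Neurl1a, Numbl and Dtx4 without the filter on low values (0.0798, 0.0549 and 0.0767). Dtx4, singled out after its values were seen, missed it in edgeR (0.0628) and in both rescaled fits (0.0579 and 0.0645) as well. The ligases Mib1 (3.29 ± 0.61 FPKM in knockout, 3.27 ± 0.15 in WT) and Itch (5.94 ± 1.37 and 4.79 ± 0.11) were not called. Itch had 6.26, 7.12 and 4.44 FPKM in the knockout libraries, against 4.83, 4.88 and 4.67 FPKM in the WT libraries. With 1 library left out in turn it passed in 1 of 6 limma fits (adjusted p = 0.0181).

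In the nucleus, Rbpj was the 1 gene called of 8 tested in the activating complex. It had 35.99, 40.07 and 34.05 FPKM in the knockout libraries, against 27.30, 28.23 and 28.55 FPKM in the WT libraries, without overlap (log2 fold change 0.37 ± 0.08, limma adjusted p = 0.0159). It did not pass without knockout replicate 1 (0.0531) or without WT replicate 1 (0.0714), 2 (0.0546) or 3 (0.0531). The coactivator genes Maml1 (11 ± 0.34 FPKM in knockout, 13.1 ± 1.1 in WT) and Maml2 (4.61 ± 1.3 and 4.03 ± 0.27) were not called. Maml3, under the limma filter, averaged 0.667 FPKM in knockout and 0.987 FPKM in WT libraries. On the estimated counts it was called lower by edgeR (adjusted p = 0.0163) and DESeq2 (0.000494). Of 13 corepressor genes Tle2, of the Groucho family, was the 1 called and fell to 1.66 ± 0.18 FPKM in knockout libraries, against 2.96 ± 0.22 FPKM in WT libraries (-0.57 ± 0.09, limma adjusted p = 0.00520).

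Of 11 other genes listed as targets, 4 were tested and 2 were higher. Cdkn1a, which encodes the cell cycle inhibitor p21 and is also a p53 target, rose to 76.7 ± 6.3 FPKM in knockout libraries, against 43.7 ± 1.1 FPKM in WT libraries (log2 fold change 0.79 ± 0.08, limma adjusted p = 0.000725). Ccnd1, cyclin D1, rose to 58.1 ± 3.5 FPKM in knockout libraries, against 46.6 ± 1.7 FPKM in WT libraries (0.31 ± 0.07, 0.0240), and missed the threshold without knockout replicate 1 (0.0512), without WT replicate 1 (0.0889), 2 (0.0902) or 3 (0.0607) and after centring each library on its median (0.0545). Both have many regulators besides Notch. Nrarp, a more specific target, had 0.04, 0.09 and 0.20 FPKM in the knockout libraries, against 0.09, 0.18 and 0.02 FPKM in the WT libraries, under the limma filter (edgeR adjusted p = 0.929), and Hes5 was at 0 throughout. Hes6 stood at 6.27 ± 0.81 FPKM in knockout and 6.34 ± 0.62 FPKM in WT libraries and was not called.

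**Figure D4:**
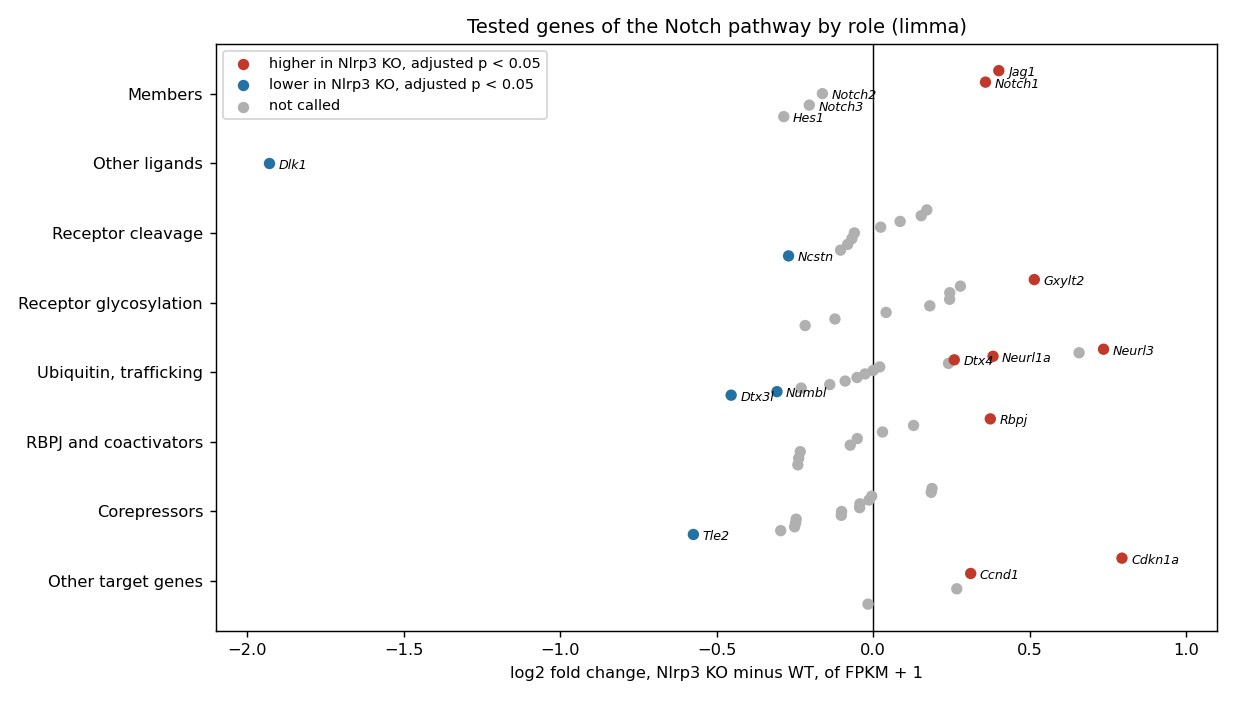
Log2 fold change (Nlrp3 knockout minus WT, FPKM + 1) of the 5 tested members and 57 further tested pathway genes, grouped by role; red and blue points passed an adjusted p of 0.05 (limma) as higher and lower, grey points did not. Calls lie on both sides of 0, with Dlk1 at -1.93 and Cdkn1a at 0.79 as the extremes.

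The genes whose pattern over the 6 libraries lay nearest to Jag1, by the root mean square difference of centred log2(FPKM + 1), were Spire1 (0.023), Herc3 (0.031), Slc33a1 (0.037) and Eif2s3x (0.038). Nearest to Notch1, the other member called, were Mical1 (0.024), Ezh2 (0.026), Col27a1 (0.028) and Mgat5 (0.029). All 8 were also called higher in the knockout libraries, which a small distance to a called gene makes likely.

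The genes annotated within the span of Notch1, Notch2, Notch3 or Jag2 reached at most 0.40 FPKM in any library, the highest being 0610009E02Rik on the strand opposite to Notch1, and no other listed gene overlaps the span of the remaining 6.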

How the data were processed

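Polyadenylated RNA of 6 libraries was sequenced. The tools listed, per the submitters' processing notes, are StringTie 1.3.4d, HISAT2 2.0.4 and cutadapt 1.9, with the build GRCm38. How counts were made, which annotation served and whether strand was used is not given in the sources used here. The authors deposited FPKM to 2 decimals and, per the file headers, a count per gene. These deposited counts are whole but are taken as estimated counts: within a gene they were proportional to FPKM (99.99% of ratios within 1% of 1 factor per library over 6617 genes), and 44.4% of counts up to 16 were multiples of 4, from which 4 counts per fragment were inferred. Each total in fragments rests on that inference.

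The main test was limma 3.58.1 (R 4.3.3) on log2 values of FPKM plus a pseudocount of 1, for the 12136 genes that reached 1 FPKM in 3 or more libraries (intensity trend, group only, two-sided, Benjamini-Hochberg over all genes tested, threshold 0.05). Alternatives were edgeR 4.0.16 (quasi-likelihood) and DESeq2 1.42.0 on the estimated counts, a pseudocount of 0.1, no filter beyond an FPKM above 0 in 1 library, FPKM divided by TMM factors, median-centred log2 values, a replicate block, and each library left out in turn with the genes kept fixed. The fits were tested on simulated data. In the titles, libraries carry a day from 1 to 3, while another label gives day 1 for all, so the pairing is uncertain; deviations of same-numbered libraries correlated at 0.02, 0.17 and 0.10 across genes. Block values are given wherever they change a call.

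Members, gene lists and tests were chosen with earlier results of these data known. Genes named are the members, Nlrp3, up to 4 called genes per pathway list by absolute fold change (all where 4 or fewer), the 4 genes nearest to the called members of largest fold change, and leading markers; genes not called, and Dtx4, were named after their values were seen. The rule for a largest fall named none, as no member was called lower, and the second called member took its place. Depth limits the low members: counts cover counting error only.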

Additional observations from a re-analysis of the deposited data

How the results depend on the processing

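The 2 calls among the members, Notch1 and Jag1, became 0 with the replicate block, 1 without the filter on low values (Jag1; Notch1 had an adjusted p of 0.0726) and 4 in DESeq2, and ranged from 0 to 2 with 1 library left out (0 without knockout replicate 1 or any 1 WT library). Over all genes 2381 calls became 3684 in DESeq2, of which 2336 were among the 2381. The 12 calls of the further pathway genes ranged from 6 to 17 with 1 library left out, with 17 without knockout replicate 3, 7 without knockout replicate 1 and 6 without each WT library. Leaving out a library leaves fewer samples, yet without knockout replicate 3 the calls over all genes rose from 2381 to 2999. Without any other library they fell to between 1589 and 1997. Knockout replicate 3 also had the fewest genes at 1 FPKM or more (11713, against 11857 to 12089 in the other libraries). The replicate block ended the pathway calls of Ncstn, Neurl1a and Dtx4 and no other. All 5 tested members kept their direction under each alternative run, rescaling included. The members at low level cannot be read at this depth: Jag2 and Heyl rest on at most about 5 fragments per genotype.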
